A study of Solanum pimpinellifolium with 6 samples.

Results

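The microRNAs miR160 and miR167 of the wild tomato LA2093, and the auxin response factor (ARF) transcripts whose cleavage was listed under them, were described at 3 temperatures. Every entry of the deposited miRNA list named miR160 or miR167, whatever letter or suffix followed, was taken, once per distinct mature sequence, which gave 16 of the 629 distinct sequences listed. Of these, 5 belonged to miR160 and 11 to miR167, and they filled 17 of 759 entries because spi-miR160h_ptc was listed for 2 hairpins. Its listed hairpin on chromosome 6 was 104 bases long, but that on chromosome 11 was only 28 bases, for a miRNA of 21 nt. To them were added the 6 degradome sites listed under these miRNAs, of 220 distinct sites, and 5 of the 6 lay in ARF transcripts. The choice used names only and no measured value.

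LA2093 is an accession of Solanum pimpinellifolium, the currant tomato, and the second fully expanded leaf of its seedlings was sampled after 8 h at 26/18 °C (day/night; NT), 33/33 °C (MET) or 40/40 °C (AET). Seedlings of the MET and AET groups received 1 extra irrigation with water per day, so heat and the extra water came together in both groups. Leaves of 5 seedlings were mixed per replicate and 3 such replicates were collected, but which of them entered a library was not stated. There was 1 small RNA (sRNA) library and 1 degradome library per temperature, so every test below sets 1 library against another, without a check by replicates, and says nothing of the spread within a temperature. A library holds the RNA of a whole leaf, in which fewer cells of a type and less RNA per cell cannot be told apart, and leaf markers could not be checked because the tables used here hold no mRNA levels.

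Plant miRNAs of about this length guide an Argonaute protein to mRNAs that pair with them along nearly their whole length, and the mRNA is cut in the middle of the paired stretch. miR160 is known for cutting the mRNAs of ARF10, ARF16 and ARF17, and miR167 for those of ARF6 and ARF8. ARF proteins bind the promoters of auxin-responsive genes. ARF10, ARF16 and ARF17 are counted among the repressing ARFs and ARF6 and ARF8 among the activating ones. In Arabidopsis both families take part in root, flower and fertility development.

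The sequences below are those on which the results turn, written 5′ to 3′ with DNA letters as deposited, and bases 2 to 8, the seed, in capitals.
spi-miR160a: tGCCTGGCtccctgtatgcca
spi-miR160h_ptc: tGCCTGGCtccctgtatgcct
spi-miR160_tae: tGCCTGGCtccctgaatgcca
spi-miR160a-3p_stu: gCGTATGAggagccaagcata
spi-miR167a: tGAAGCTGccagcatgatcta
spi-miR167a_gma: tGAAGCTGccagcatgatctt
spi-miR167h_mdm: tGAAGCTGccagcatgatcttt
spi-miR167b-5p, 22 nt, without a position: tGAAGCTGccagcatgatctgc
spi-miR167b-5p, 22 nt, chromosome 2: tAAAGCTGccagcatgatctgg
spi-miR167b-5p, 20 nt: tAAAGCTGccagcatgatct
spi-miR167d-3p_stu: gATCATGTggttgcttcacc
spi-miR167b-3p_stu: aTCAGATCatgtggcagcatcacc

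The 3 miR160 sequences of the mature (5p) arm shared their seed and their first 14 bases. Counted from the 5′ end of spi-miR160a, spi-miR160h_ptc differed from it by A21T at the last base and spi-miR160_tae by T15A. The miR167 family had 6 mature-arm sequences, which were identical from base 3 to base 20. Counted from the 5′ end of spi-miR167a, 4 of them carried its bases 1 to 20 and ended differently, and the other two, both named spi-miR167b-5p, carried G2A and so had another seed. The 20 nt spi-miR167b-5p was the first 20 bases of the 22 nt form from chromosome 2. The remaining 7 sequences came from the opposite arm or the loop and shared none of these seeds.

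Hairpins of the most-read member of each family are given next, in lower case with the listed 5p and 3p sequences in capitals, since the levels of both arms are compared further on.
spi-miR160a hairpin, chr5:64582664-64582792, minus strand: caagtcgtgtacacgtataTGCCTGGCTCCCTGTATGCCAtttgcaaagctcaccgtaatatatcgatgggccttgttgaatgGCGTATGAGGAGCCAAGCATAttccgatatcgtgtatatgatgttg
spi-miR167a hairpin, chr6:45629356-45629471, minus strand: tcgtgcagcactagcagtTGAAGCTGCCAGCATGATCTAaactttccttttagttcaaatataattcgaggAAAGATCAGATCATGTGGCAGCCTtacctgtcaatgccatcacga

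The positions are those of the deposited list. Its genome build was not stated in any source used here. The spi-miR160a hairpin had 43 bases between its arms, and 19 of 21 bases of either arm were paired in its predicted fold (-60.2 kcal/mol). In the spi-miR167a hairpin 32 bases lay between the arms, and 18 of 21 bases of the 5p arm and 20 of 24 of the 3p arm were paired (-46.3 kcal/mol). The whole spi-miR167a sequence was present in 7 of the 13 distinct hairpin sequences of the members, on chromosomes 6 and 9, so its reads cannot be assigned to 1 gene. The spi-miR160a sequence was present in 2, on chromosomes 5 and 2. On chromosome 2 it formed the start of the hairpin under which spi-miR160b-p5_stu was listed. That 24 nt sequence began at base 21 of the hairpin, which is the last base of the mature sequence, and ran on past it.

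Several miR167 hairpins lay together on chromosome 9. That of spi-miR167c-3p_stu (chr9:59575910-59575992) was 8649 bases from that of spi-miR167a_gma (chr9:59584642-59584814), which enclosed that of spi-miR167b-3p_stu (chr9:59584679-59584771). The hairpin of spi-miR167d-3p_stu (chr9:63883415-63883489) lay within that of spi-miR167e-p3_mes farther along. Some listed reads did not match their own hairpin. Counted from the 5′ end of the read, the 20 nt spi-miR167b-5p differed from its chromosome 6 hairpin by G2A, while the 22 nt form matched its chromosome 2 hairpin in full. spi-miR167a_gma differed from its hairpin by A21T at the last base. No position was listed for 3 members, namely spi-miR160_tae, spi-miR167h_mdm and the other 22 nt spi-miR167b-5p.

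The listed miRNAs held 301702 raw reads over distinct sequences at NT, 424963 at MET and 394910 at AET. In the deposited normalized reads each library was multiplied by a factor of its own, so that 1 raw read was worth 1.33, 0.833 and 0.898 normalized reads. All sequences of miR160 together took 0.0288% of the listed raw reads at NT (95% exact binomial interval 0.0231 to 0.0356), 0.0471% at MET (0.0408 to 0.0541) and 0.0427% at AET (0.0366 to 0.0498). Those of miR167 took 0.603% at NT (0.576 to 0.632), 1.35% at MET (1.32 to 1.39) and 1.18% at AET (1.14 to 1.21). The share of either family was lowest at NT, with no overlap of its interval with those of the heated libraries. These intervals, and all others here, cover counting error only.

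Within each family 1 sequence held most reads of the mature arm. spi-miR167a held 82.4% of the miR167 mature-arm reads at NT (80.3 to 84.2), 87.6% at MET (86.7 to 88.5) and 89.1% at AET (88.1 to 90.0). spi-miR160a held 94.3%, 96.4% and 98.5% of the miR160 mature-arm reads in the same order, with intervals that overlapped. By raw reads spi-miR167a ranked 13th, 11th and 10th of all listed sequences at NT, MET and AET, and spi-miR160a ranked 78th, 63rd and 63rd.

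spi-miR167a, the main form of the miRNA that cuts ARF6 and ARF8 mRNAs in other plants, had 1268 raw reads at NT, 4624 at MET and 3885 at AET. As normalized reads these were 1686, 3853 and 3488, so the NT library stood apart and the heated libraries were close to each other. The sequence rose 2.29-fold at MET against NT (log2 ratio 1.19, 95% interval 1.10 to 1.28) and 2.07-fold at AET against NT (1.05, 0.96 to 1.14). AET against MET gave a log2 ratio of -0.14 (-0.21 to -0.08), which was not called. Each sequence was set against the rest of the list in normalized reads, by Fisher's exact test and by chi-square. It was called where neither p exceeded 0.05 and its log2 ratio reached 1 in either direction. The listed normalized reads did not sum to the same total in each library, so these p-values compare shares of the list. They do not test whether the log2 ratio printed beside them is 0. At MET against NT, spi-miR167d-3p_stu had a log2 ratio of 0.00 but p = 0.229 by Fisher's exact test. The ratio of spi-miR167a at AET against NT (1.05) lay close to the fold limit of 1, and its interval reached below that limit.

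**Figure D1:**
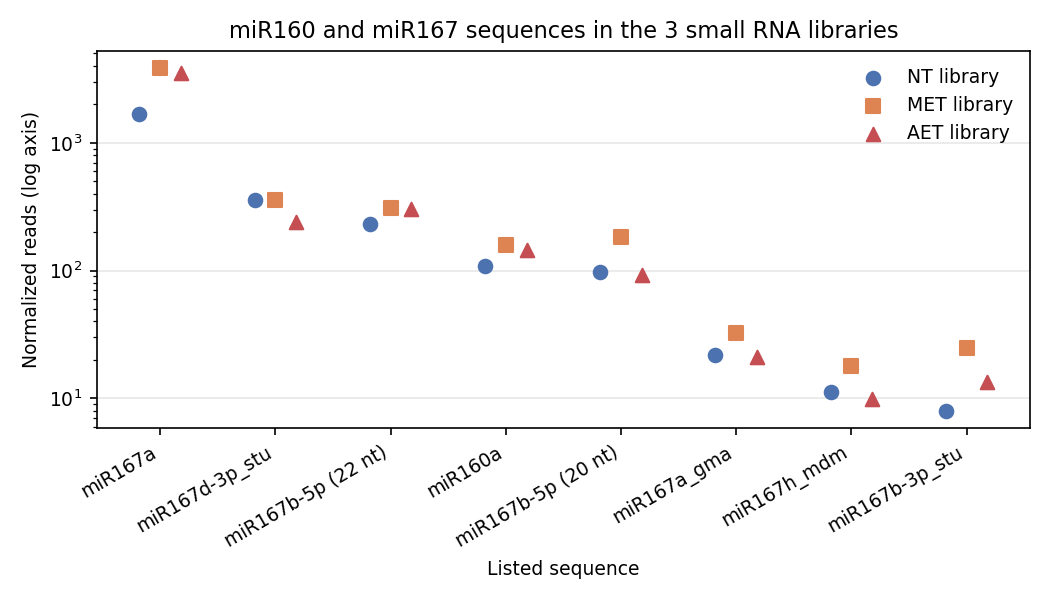
Normalized reads (log axis) of the 8 miR160 and miR167 sequences that reached 10 normalized reads in any library, ordered by their NT level, with 1 point per sRNA library. spi-miR167a stands above all others in each library, at 1686, 3853 and 3488 for NT, MET and AET.

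The other forms of the miR167 mature arm that had reads in all 3 libraries gave smaller log2 ratios against NT, and none of the other forms was called in any comparison. The 22 nt spi-miR167b-5p from chromosome 2 had 230.0, 308 and 302 normalized reads at NT, MET and AET, with log2 ratios of 0.42 (0.16 to 0.69) and 0.39 (0.12 to 0.66) against NT. Its 20 nt form had 97.7, 182 and 92.9 normalized reads, the highest at MET. Its log2 ratio was 0.90 at MET against NT (0.51 to 1.29), -0.07 at AET against NT (-0.52 to 0.37) and -0.97 at AET against MET (-1.32 to -0.62). The 20 nt form passed both tests at MET against NT and at AET against MET and missed only the fold.

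spi-miR167a_gma and spi-miR167h_mdm, which carry the same first 20 bases as spi-miR167a with another end, were low. spi-miR167a_gma had 21.9, 32.5 and 21.1 normalized reads at NT, MET and AET, and spi-miR167h_mdm had 11.3, 17.8 and 9.88. The intervals of their ratios against NT included 0 in both heated libraries. The last mature-arm form, the 22 nt spi-miR167b-5p without a position, had 0, 5.33 and 1 raw reads.

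Ratios between 2 sequences of the same library do not depend on the scaling. Relative to the 22 nt spi-miR167b-5p from chromosome 2, spi-miR167a was higher at MET than at NT by 0.77 on the log2 scale (0.49 to 1.05) and at AET by 0.66 (0.37 to 0.94). The 20 nt form made up 29.8% of the reads of the 20 and 22 nt forms at NT (24.3 to 36.1), 37.2% at MET (33.3 to 41.2) and 23.5% at AET (19.7 to 27.9). That share was lower at AET than at MET, with intervals apart, while the NT interval overlapped both.

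On the other arm, spi-miR167d-3p_stu was the most-read sequence. It had 355, 356 and 238 normalized reads at NT, MET and AET, so AET was lowest and the other two were equal within 1 read. Its log2 ratios were 0.00 at MET against NT (-0.22 to 0.23), -0.58 at AET against NT (-0.83 to -0.33) and -0.58 at AET against MET (-0.81 to -0.36), and none was called. Relative to it, spi-miR167a was higher by 1.19 on the log2 scale at MET against NT (0.94 to 1.43) and by 1.63 at AET against NT (1.36 to 1.89).

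spi-miR167b-3p_stu, a 24 nt sequence of the same arm, had 6, 30 and 15 raw reads at NT, MET and AET. It rose at MET against NT by 1.65 on the log2 scale (0.36 to 3.20, p = 0.00141 by Fisher's exact test). At AET against NT its log2 ratio of 0.76 had an interval of -0.69 to 2.41 and was not called. The 3p sequence of the spi-miR167a hairpin, spi-miR167a-p3, had 1, 2 and 1 raw reads, or 0.0788%, 0.0432% and 0.0257% of its reads and those of spi-miR167a together. As spi-miR167a also occurs in other hairpins, these are not shares of the arms of 1 hairpin. The remaining miR167 sequences, spi-miR167c-3p_stu and spi-miR167e-p3_mes, had between 0 and 4 raw reads in each library.

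**Figure D2:**
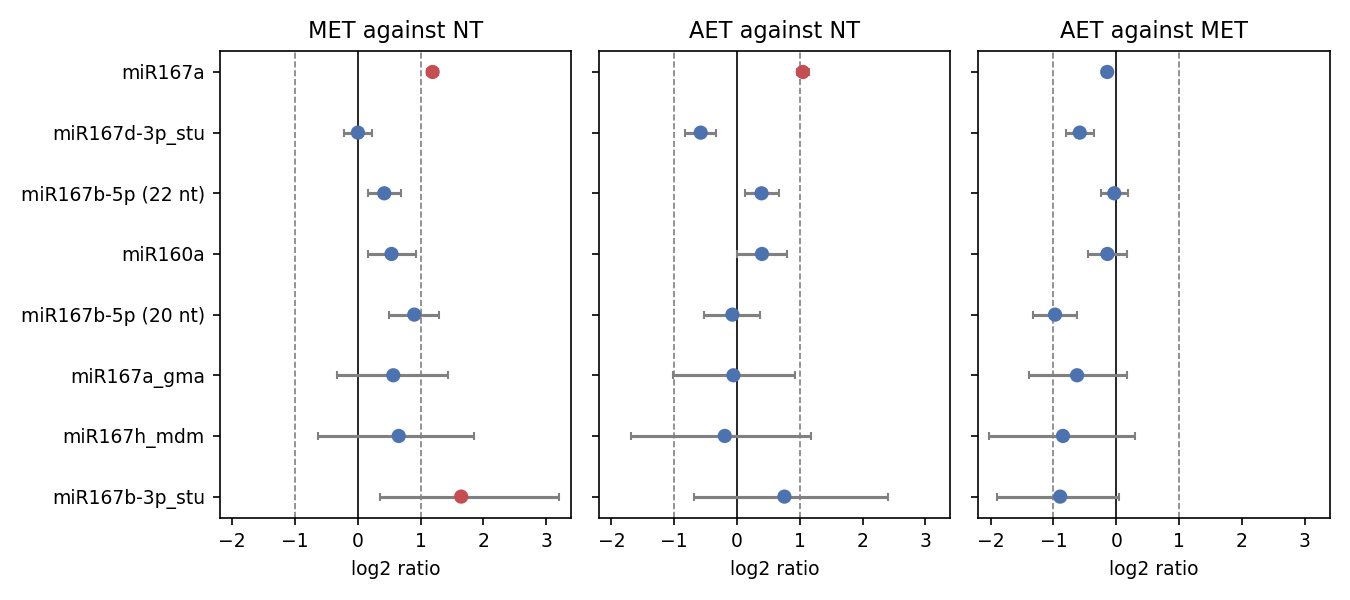
Log2 ratios of normalized reads between libraries for the 8 sequences that reached 10 normalized reads in any library, with exact 95% intervals from the raw reads (counting error only); red points were called, blue points were not, and dashed lines mark the fold limit. spi-miR167a was called at MET and at AET against NT (1.19 and 1.05), spi-miR167b-3p_stu at MET against NT alone (1.65), and nothing at AET against MET.

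spi-miR160a had 82, 190 and 160 raw reads, or 109, 158 and 144 normalized reads, at NT, MET and AET. The NT library was lowest and the heated libraries were again close. Its log2 ratio was 0.54 at MET against NT (0.16 to 0.93), 0.40 at AET against NT (0.01 to 0.80) and -0.14 at AET against MET (-0.45 to 0.17). Both tests passed against NT (p = 2.24e-04 and p = 0.00244 by Fisher's exact test) but the fold did not, so it was not called. These p-values compare shares of the list in normalized reads, and the interval of the AET ratio itself nearly reached 0. The ratio of spi-miR167a to spi-miR160a in raw reads was 15.5 at NT, 24.3 at MET and 24.3 at AET. It was higher than at NT by 0.65 on the log2 scale in both heated libraries (0.25 to 1.05 at MET and 0.24 to 1.06 at AET), and AET differed from MET by 0.00 (-0.32 to 0.32).

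The other miR160 sequences were rare. spi-miR160h_ptc had 5, 6 and 2.5 raw reads at NT, MET and AET, spi-miR160_tae had 0, 1 and 0, and the loop sequence spi-miR160b-p5_stu had 0, 0 and 2. spi-miR160a-3p_stu, from the other arm of the spi-miR160a hairpin, had 0, 3 and 4. It took 1.55% of its reads and those of spi-miR160a together at MET (0.322 to 4.48) and 2.44% at AET (0.668 to 6.13). At NT it took 0 of 82, with an upper limit of 4.40% by the same exact interval. As the spi-miR160a sequence is also present in a hairpin on chromosome 2, these are not shares of the arms of 1 hairpin. It was counted as called at AET against NT, with p = 0.0499 by Fisher's exact test, only because a ratio over 0 reads is infinite and so passes the fold. As 0 reads at NT allow up to 3, or 3.99 normalized reads, against 3.59 measured at AET, no fold could be given, and at that floor the ratio would not reach the limit. That call was lost under 6 of 8 other settings.

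Counted over all members, 2 of the 15 tested were called higher at MET against NT and 0 lower, beside 7.02% higher and 5.35% lower of all 598 sequences tested. At AET against NT, 2 of 15 were called higher and 0 lower, beside 13.5% and 8.8% of 591, and 1 of the 2 was spi-miR160a-3p_stu with its infinite ratio. At AET against MET, 0 of 16 were called in either direction, beside 12.1% higher and 9.69% lower of 588. The members' share called higher was 13.3% in both comparisons with NT, close to the background at AET against NT. No correction for many tests was part of the rule. With adjusted p-values 2 members were called higher at MET against NT, beside 4.18% of all sequences higher and 2.34% lower. At AET against NT 1 was called higher, beside 9.48% and 7.78%.

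Among the 8 members that reached 10 normalized reads in any library, the median log2 ratio was 0.61 at MET against NT, 0.17 at AET against NT and -0.60 at AET against MET. Over all listed sequences with that many reads in 1 of the 2 libraries, the medians were 0.00 (271 sequences), 0.15 (294) and 0.01 (298). At MET against NT all 8 had a log2 ratio above 0, and at AET against MET all 8 were below 0. Both comparisons use the same MET library. Another scaling, by valid reads, moved the median of all sequences at MET against NT to 0.43 and that at AET against MET to -0.28. It moved the log2 ratios of the members by the same amounts. The medians and signs thus depend in part on the scaling. The gap between the median of these 8 members and that of all sequences does not, but it was not tested.

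Summed over the mature arm, miR167 was 2.15-fold higher at MET against NT (log2 ratio 1.10, 1.02 to 1.19) and 1.91-fold higher at AET against NT (0.94, 0.85 to 1.02), as a description without a test. The miR160 sum gave 0.51 at MET against NT (0.13 to 0.89) and 0.34 at AET against NT (-0.04 to 0.73). AET against MET gave -0.17 for both families (-0.23 to -0.11 for miR167 and -0.47 to 0.14 for miR160).

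**Figure D3:**
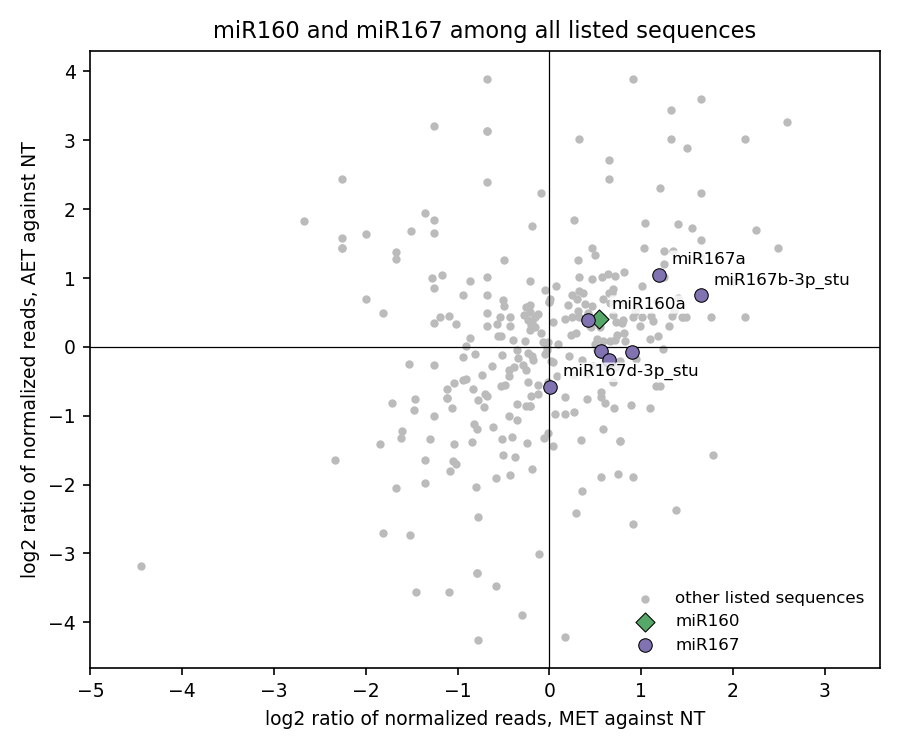
Log2 ratio at AET against NT (vertical) over that at MET against NT (horizontal) for the 301 listed sequences that reached 10 normalized reads in any library and had reads in all 3, with the 8 miR160 and miR167 sequences in colour; both axes share the NT library. spi-miR167a lies at 1.19 and 1.05, spi-miR160a at 0.54 and 0.40, and spi-miR167d-3p_stu at 0.00 and -0.58.

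Among 271 sequences, 10.7% had a larger log2 ratio than spi-miR167a at MET against NT, and among 294, 18.0% had one at AET against NT. The sequences outside both families with the most similar pair of ratios to NT, among 78 with a mean of at least 100 normalized reads, were spi-miR6023-p5 (1.00 and 0.89), spi-miR6023-p3 (1.35 and 1.39) and spi-miR396a-5p (1.17 and 0.66). Their distances from spi-miR167a were 0.25, 0.37 and 0.39 on the log2 scale. Nearest to spi-miR160a were spi-miR396b (0.58 and 0.44, distance 0.05), spi-miR482b-3p_stu (0.56 and 0.28, 0.12) and spi-miR482c_stu (0.46 and 0.29, 0.13). In either case the likeness rests on 3 libraries.

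Degradome sequencing reads the 5′ ends of cut mRNAs, so reads that start at 1 base within a paired site mark cleavage there. Each site carried a category, in which 0 marks the single highest peak of the transcript, 2 a peak between the median and the highest peak and 4 a single raw read. Tags were deposited scaled to a fixed library total (TPB) and were divided here by the TPB of 1 read, which was 84.9 at NT, 87.2 at MET and 92.1 at AET. Reads at the ARF sites were few, with 9 in all at NT, 10 at MET and 8 at AET, of 264, 221 and 275 over the 220 listed sites.

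ARF17 (Solyc11g013470.1.1), a repressing ARF that acts in adventitious rooting and pollen wall formation in Arabidopsis, had its site at base 554 of the transcript, within a paired range of bases 543 to 563. It had 4, 3 and 3 reads at NT, MET and AET, in category 0 in all 3 libraries. These counts of cut mRNA were nearly even, and they do not measure the level of the transcript. Only 2 of the 220 sites (0.909%) were of category 0 in all 3 libraries, and 37 (16.8%) had reads in all 3. Other sites with more reads numbered 10, 14 and 15 in the same order. The log2 TPB ratios were -0.38 at MET against NT (-3.15 to 2.19) and -0.30 at AET against NT (-3.07 to 2.27), intervals that leave room for changes in either direction.

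ARF16 (Solyc06g075150.2.1), which acts with ARF10 in root cap formation in Arabidopsis, had 4 reads at base 1502 in the NT library (category 0), 1 at MET (category 4) and 0 at AET. At AET against NT the difference gave p = 0.0569 by Fisher's exact test, and 0 reads allow up to 3. ARF10 (Solyc11g069500.1.1) had 0, 0 and 1 reads at base 1313. The 3 miR160 sites together had 8, 4 and 4 reads. All 3 were listed under spi-miR160a, spi-miR160h_ptc and spi-miR160_tae alike, so the reads cannot be divided among these sequences.

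The alignment score penalizes mismatches, and 0 is a perfect match. spi-miR160h_ptc, the form with the A21T end shown above, scored 0 at ARF10 and ARF16 and 1 at ARF17. spi-miR160a scored 1, 1 and 1.5 at these sites and spi-miR160_tae scored 2 at each. The lowest score at each site thus belonged to a form with at most 6 raw reads in a library. The listed positions of spi-miR160h_ptc were on chromosomes 11 and 6, as were the transcripts of ARF10 and ARF17 (11) and ARF16 (6). Whether these positions overlap the target sites on the opposite strand was not tested. In each miR160 site the listed cut lay opposite base 10 of the miRNA, counted from its 5′ end, as in 83.7% of all rows of the site list.

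ARF8, an activating ARF known for its part in flower maturation and fruit set, was listed for a pair of transcripts, Solyc02g037530.2.1 (site at base 2291) and Solyc03g031970.2.1 (site at base 2294). Each had 0.5, 3 and 2 reads at NT, MET and AET, because the same tags matched both transcripts and were split between them. The site was of category 4 at NT and 2 in both heated libraries. Summed over the pair there were 1, 6 and 4 reads, lowest at NT. The sum differed by 2.62 on the log2 scale at MET against NT (-0.42 to 8.15, p = 0.0508 by Fisher's exact test) and by 2.12 at AET against NT (-1.22 to 7.74, p = 0.373).

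**Figure D4:**
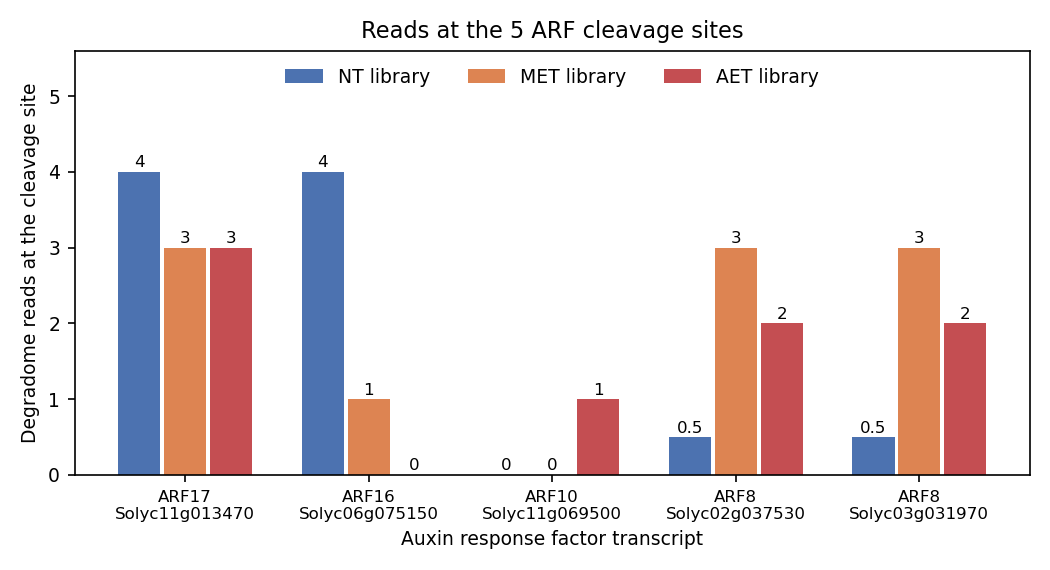
Degradome reads at the 5 ARF cleavage sites (bars from 0, with the count above each), 1 bar per degradome library. ARF17 has 4, 3 and 3 reads at NT, MET and AET, ARF16 has 4, 1 and 0, and each ARF8 transcript has 0.5, 3 and 2 because tags shared by both were split.

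At ARF8 the listed miRNAs were the 20 nt spi-miR167b-5p (score 3), spi-miR167a_gma (4) and spi-miR167h_mdm (4). The same reads were listed under each of them and cannot be divided among them. spi-miR167a, which shares its first 20 bases with the latter pair and had 1268 to 4624 raw reads, was listed with no site, nor was the 22 nt spi-miR167b-5p from chromosome 2. No score in the site list exceeded 4, and scores of unlisted pairs were not computed here. Their absence from the list therefore does not show that these sequences leave ARF8 uncut. The paired range on ARF8 was 1 base longer than each of the listed miRNAs, as in 17.8% of all rows, and the listed cut lay opposite base 11 counted from the end of that range, as in 8.6% of rows. No ARF6 transcript was listed. The only other site of a member was in Solyc11g010600.1.1, an O-fucosyltransferase family transcript, under the 20 nt spi-miR167b-5p (score 3), with 1, 2 and 3 reads at NT, MET and AET.

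With a p of 0.05 or less by Fisher's exact test and a log2 TPB ratio that reached 1 in either direction, 0 of the 5 ARF sites were called in any comparison. Over all sites the same rule called 1.18% higher and 0% lower at MET against NT (169 sites tested), 1.64% and 0% at AET against NT (183), and 0.592% and 1.78% at AET against MET (169). The smallest p at an ARF site was 0.335 at MET against NT, 0.0569 at AET against NT and 0.446 at AET against MET. With the tags shared by the ARF8 pair summed, the smallest was 0.0508 at MET against NT and 0.352 at AET against MET, and still 0 sites were called. At 0 to 4 reads per site these p-values turn on single reads, and they do not show that the libraries were alike.

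Other miRNAs of the auxin pathway were taken from a list of 3 families. miR390 starts the small RNAs that act on ARF3 and ARF4, miR393 cuts the mRNAs of the auxin receptors TIR1 and AFB, and miR164 acts on NAC factors in lateral organs. They had 19 distinct sequences. At MET against NT 1 of 18 tested was called higher and 0 lower, beside 7.02% and 5.35% of all sequences. At AET against NT 1 of 18 was higher and 1 lower, beside 13.5% and 8.8%. At AET against MET 0 of 15 were higher and 5 lower, beside 12.1% and 9.69%. Both calls of a higher level rested on few reads. At MET against NT it was spi-miR164-p3_stu, with 1, 8 and 0 raw reads at NT, MET and AET, which was also called lower at AET against MET. At AET against NT it was spi-miR393-3p_stu, with 0, 1 and 5 raw reads, whose ratio over 0 reads is infinite. The sequence that fell at AET against NT was spi-miR393a_bdi, with 15, 16 and 2 raw reads at NT, MET and AET (log2 ratio -3.47, -6.64 to -1.37). spi-miR164a-5p had 221, 365 and 180 normalized reads and fell at AET against MET (-1.02, -1.27 to -0.78), as did spi-miR390a-p5_hex with 282, 339 and 146 (-1.21, -1.48 to -0.95). No other miR390 sequence was called there, and the family did not move as 1. spi-miR390a-5p, with 199, 169 and 262 normalized reads, was higher at AET than at MET (0.63, 0.37 to 0.90). spi-miR390b-5p, with 98.4, 86.7 and 86.2, was nearly even (-0.01, -0.42 to 0.41).

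At the site level, TIR1 (Solyc09g074520.2.1) was listed under 2 miR393 sequences with 3, 1 and 1 reads at NT, MET and AET, and no difference was called. The symbol search also returned ARF3 (Solyc07g006640.2.1) and GH31 (Solyc04g009630.2.1), but the list annotates them as an ADP-ribosylation factor and a glycosyl hydrolase, so neither belongs to the auxin pathway. No site of an IAA, AUX, PIN or SAUR symbol was listed.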

How the data were processed

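One sRNA library and one degradome library per temperature were analysed (group labels NT, MET and AET). The authors kept sRNA reads of 19 to 24 nt, removed those that matched other RNA classes or repeats, and matched the rest to plant miRNAs with at most 1 mismatch. Their deposited raw reads are estimated counts, because reads of several places were split, and reads that were not whole were rounded for tests and intervals. Their deposited normalized reads are a signal, made with 1 scaling factor for each library. For the degradome the authors deposited TPB, a signal that was divided by the TPB of 1 read, an alignment score and a category. The authors' own ratios and p-values, in 2 further tables, and the targets of predicted miRNAs were not used. Members and lists were chosen with earlier results of these data known. Named items were all members and their sites, the auxin families, and the 3 nearest sequences by ratio.

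Tests were the chi-square test without continuity correction and two-sided Fisher's exact tests over all listed sequences or sites. Intervals are exact 95% binomial or conditional binomial intervals, and those of ratios of 2 sequences, added after the data had been seen, are conditional odds ratios. For bounds on a fold a library at 0 was set to a floor of 3 raw reads. The call rule used no floor, and a ratio over 0 reads passed its fold limit. Hairpin sequences came from the study's precursor list and were folded with RNAfold 2.7.2. Alternatives were other scalings, totals, filters and adjustments. The tests were checked on simulated data. The software was SciPy 1.17.1, NumPy 2.4.6, matplotlib 3.10.9 and pandas 2.3.3 under Python 3.11.15.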

Additional observations from a re-analysis of the deposited data

How the results depend on the processing

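Scaling by valid reads at an unchanged mean depth raised the number of members called at MET against NT from 2 to 4, 3 higher and 1 lower. At AET against NT it lowered the number from 2 to 1, called higher, beside 12.7% of all sequences higher and 8.14% lower. At AET against MET it raised the number from 0 to 1, called lower, beside 13.3% higher and 13.1% lower. It gave the miR160 mature-arm sum a log2 ratio of 0.93 at MET against NT, and the miR167 sum 1.53 at MET against NT, 1.07 at AET against NT and -0.45 at AET against MET. At MET against NT it also called 11.2% of all sequences higher and 3.69% lower. With median-of-ratios factors the miR167 sum at AET against MET was -0.084. At AET against NT 1 member was called, as higher, under each of the next settings, given with the shares of all sequences called higher and lower. With those factors the shares were 13.9% and 8.63%, and with raw reads in the tests 10.8% and 9.95%. Without the most abundant sequence in the totals they were 10.3% and 11.2%. With Benjamini-Hochberg adjustment they were 9.48% and 7.78%, and with at least 10 normalized reads 9.14% and 7.61%. The call lost there was that of spi-miR160a-3p_stu in each case. Without the fold limit 5 members were called higher and 0 lower at MET against NT, beside 14.2% and 8.19% of all sequences. At AET against NT 4 were higher and 1 lower, beside 20.98% and 11.7%. At AET against MET 0 were higher and 3 lower, beside 17.9% and 15.8%. With spi-miR167a alone the miR167 sum became 1.19 and 1.05 against NT, and with every listed miR167 sequence 0.98 and 0.79. The cause of these differences was not tested beyond what each setting changes. The calls of spi-miR167a at MET and AET against NT and of spi-miR167b-3p_stu at MET against NT held under all 8 alternatives, and 0 ARF sites were called under all 4 alternatives of the site test. No paired analysis was possible because each temperature had 1 library of a kind. Reads at the ARF sites numbered at most 4 per transcript, which limits every statement on cleavage.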
